A study of Mus musculus with 16 samples.

Results

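The Sdhc fl/fl line is an immortalized mouse embryonic fibroblast line of genotype R26M2rtTA/+;TetOcre;Sdhcfl/fl, in which doxycycline turns on a Cre recombinase that rearranges the floxed copies of Sdhc. Its late libraries, taken on day 12, day 16 (replicate 1) and day 20 of doxycycline, were compared with its early libraries of days 0, 5 and 9. These 6 libraries, 3 a side, were chosen by genotype and day out of the 16 libraries of the series. The other line, R26M2rtTA/+;TetOcre;Sdhcfl/wt, carries the same activator and Cre and 1 floxed Sdhc copy, received the same drug and was sampled on the same days. Both lines grew in low-glucose DMEM with 10% serum at 5% CO2 and received 1 µg/mL doxycycline. The rtTA activator is expressed from the ubiquitous Rosa26 locus. Each genotype is represented by 1 line, so genotype and line cannot be told apart. The libraries of a period are different days of 1 line, and the labels do not say that they came from separate cultures, so p-values measure the spread between these libraries. The remaining day 16 libraries of the fl/fl line, replicates 2 and 3, were kept out of both periods and are given beside the results.

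Sdhc encodes a membrane anchor of succinate dehydrogenase, complex II of the respiratory chain. The enzyme oxidizes succinate to fumarate in the tricarboxylic acid cycle and passes the electrons to ubiquinone. When it is lost, succinate accumulates, and succinate can inhibit the 2-oxoglutarate-dependent dioxygenases that demethylate histones and DNA and that mark HIF proteins for destruction. In people, inherited loss of SDH subunits predisposes to paraganglioma.

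Expression was deposited as FPKM, a read density scaled to gene length and library size. Reads in genes, recovered from the steps of these values, ranged from 18121520 to 29847904 over the 6 libraries. On the log2(FPKM + 1) scale, day 16 replicate 1 and day 20 correlated at 0.993 over genes and day 9 with day 12 at 0.985. Day 0 stood further off, at 0.945 to 0.961 with each other library, and day 16 replicates 2 and 3 at 0.946 to 0.963 with the 6 although they correlated at 0.995 with each other. All 13 fibroblast markers were measured at a mean of at least 1 FPKM, and their summed level was 4830 to 5620 FPKM early and 5050 to 5250 late. Of 11 macrophage and leukocyte markers, Ptprc, Adgre1, Itgam and Tyrobp had no read in any of the 6 libraries. In the same list Cd68 was at 2.59 to 5.91 FPKM, Cd14 at 2.71 to 3.29 and Coro1a at 0.894 to 1.9. Of 9 endothelial markers, Pecam1, Cdh5, Emcn, Tie1 and Vwf stayed under 0.1 FPKM in all 6, while Erg was at 10.1 to 21.2. The muscle regulators Myf5, Myod1 and Myog also stayed under 0.1 FPKM in all 6.

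Sdhc itself lies on chr1:173057296-173080734 of mm9, on the minus strand. It stood at 87.8 FPKM on day 0, 54.4 on day 5 and 43.8 on day 9, and at 44.0 on day 12, 36.9 on day 16 and 42.5 on day 20. Most of the difference from day 0 was present by day 5, at 61.9% of the day 0 level, and day 20 was at 48.4%. The periods overlapped, because day 9 was marginally below day 12. The late-minus-early difference was -0.52 on the log2(FPKM + 1) scale (exact permutation test, two-sided, p = 0.2, n = 3 a side, where 0.1 is the smallest p that 3 against 3 allows). Leaving out day 0 brought it to -0.245. Day 16 replicates 2 and 3 were lower, at 32.8 and 26.5 FPKM. Sdhc in the fl/wt line stood at 90.5 on day 0 and at 58.6, 47.6, 52.6, 50.5 and 54.7 on the later days, a difference of -0.26 (exact permutation p = 0.5). The difference between the lines' changes was -0.26 ± 0.35 (SE; limma adjusted p = 0.922), in a fit that does not pair the lines by day. Within days, fl/fl minus fl/wt was -0.0421, -0.105 and -0.12 on days 0, 5 and 9 and -0.254, -0.445 and -0.356 on days 12, 16 and 20. The fl/fl library was the lower one on every day, and the late differences lay beyond all early ones (exact permutation test, two-sided, p = 0.1, the smallest that 3 against 3 allows). With day as a block, a fit added after seeing the data, the difference was -0.26 ± 0.10 (SE; limma unadjusted p = 0.0352, adjusted p = 0.45). The files give 1 FPKM value a gene, which does not show whether the floxed segment was lost. The early period includes day 9, on which the level was already within the late range.

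Among the other subunits, the late libraries overlapped the early ones. The flavoprotein Sdha stood at 57.4, 81.3 and 83.3 FPKM early and 70.5, 71.5 and 64.5 late. The iron-sulfur subunit Sdhb stood at 31.6, 24.1 and 33.7 early against 26.1, 26.4 and 26.2. The second membrane anchor Sdhd stood at 136, 122 and 98.6 early against 102, 107 and 106. All 8 SDH subunits and assembly factors had a negative difference, with a median of -0.23, and none passed the test. Of these 8, the late libraries lay below all early ones for the assembly factors Sdhaf3 and Sdhaf4, beside 9.12% of all genes. Sdhaf4 was at 27.5, 17.4 and 20.8 FPKM early and at 17.2, 12.5 and 14.6 late.

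**Figure D1:**
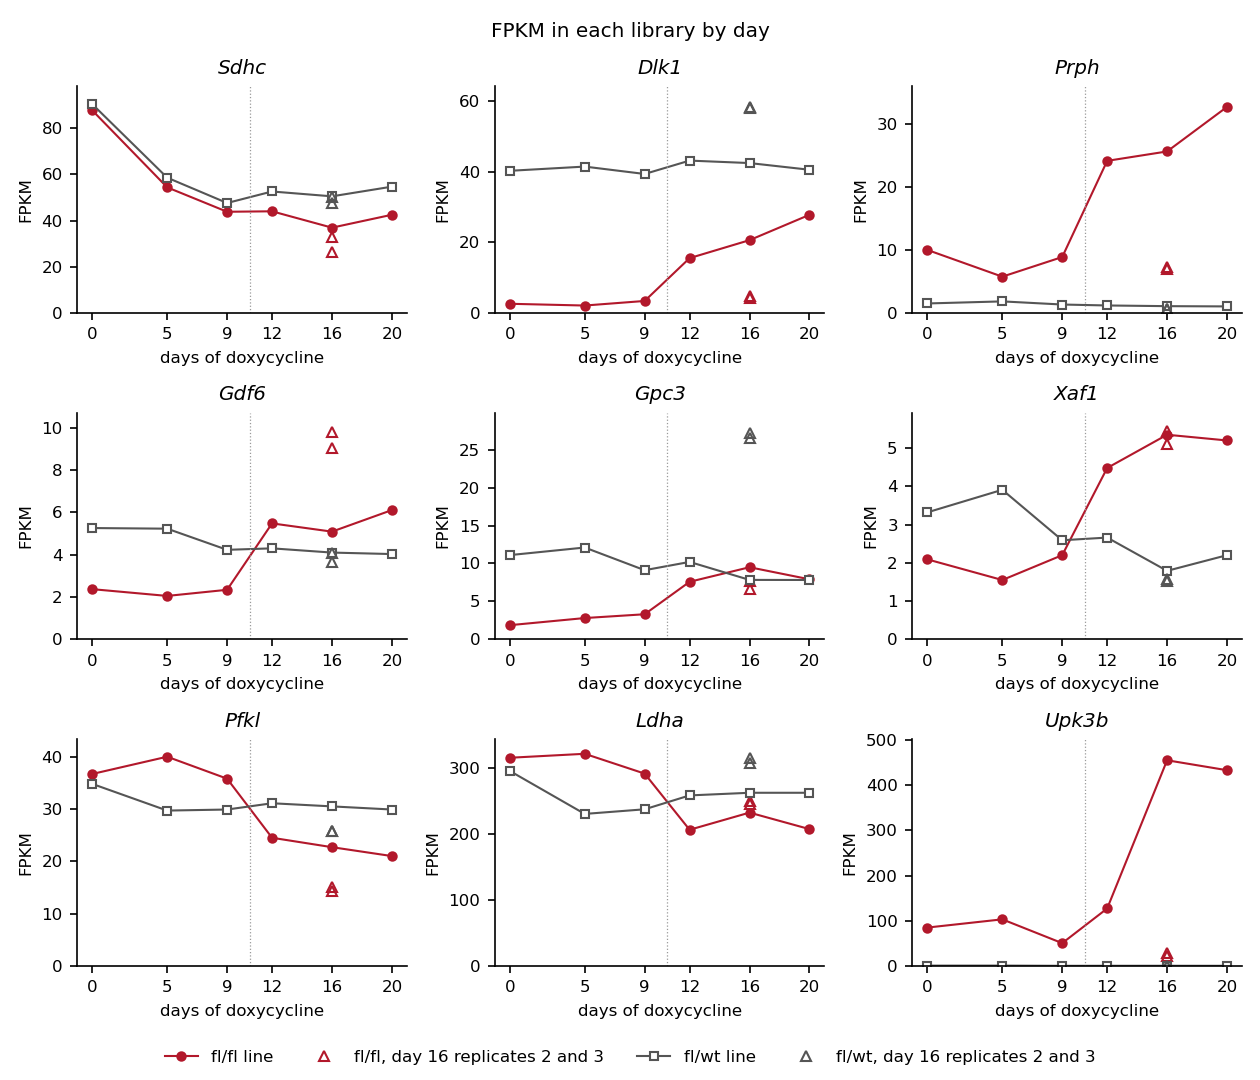
FPKM (y axis, from 0) against days of doxycycline (x axis) for 9 genes, 1 point a library. Filled circles are the fl/fl line, open squares the fl/wt line, triangles day 16 replicates 2 and 3, and the dotted line separates early from late; Dlk1 in the fl/fl line stands at 2.03 to 3.33 FPKM early and 15.5 to 27.8 late.

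One gene passed the test between late and early libraries of the fl/fl line, Dlk1, which rose. Dlk1 encodes an imprinted transmembrane protein of the Notch-ligand family that holds back adipocyte differentiation. It lies on chr12:110691033-110701546 of mm9, on the plus strand. It stood at 2.53, 2.03 and 3.33 FPKM on days 0, 5 and 9, and at 15.5, 20.6 and 27.8 on days 12, 16 and 20. Every late library exceeded every early one, and the largest step lay between days 9 and 12. The means were 2.63 ± 0.654 and 21.3 ± 6.18 FPKM (SD, n = 3 each), an 8.1-fold ratio. The log2 difference was 2.60 ± 0.22 (SE; limma, Benjamini-Hochberg adjusted p = 0.0491). Day 16 replicates 2 and 3 were at 4.27 and 4.82 FPKM, above the early range and below the late one. With their mean in place of replicate 1 the difference was 1.94 (adjusted p = 0.955), and Dlk1 was not called. Dlk1 in the fl/wt line was at 39.4 to 41.5 FPKM early and 40.6 to 43.2 late, above every fl/fl library. In bulk RNA, a larger share of cells with a transcript and more of it per cell cannot be told apart.

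That single call was 0.00796% of the 12570 genes tested. At an unadjusted p under 0.05 there were 1247 genes, 675 higher and 572 lower late. Counting separation alone, the 3 late libraries lay above all 3 early ones for 816 genes (6.49%) and below them for 1147 (9.12%). After median-of-ratios rescaling these counts were 999 and 874, so the balance between the directions depends on scaling. The median difference over all genes was -0.0492. Without day 12, 208 genes passed, 202 of them higher, and Dlk1 was among them (adjusted p = 0.00954). Leaving out any of the other 5 libraries left no gene past the threshold in limma, with 548 to 1982 genes at an unadjusted p under 0.05, beside 1472 without day 12. The other genes below are therefore described by their values and by whether the periods overlapped.

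Dlk1 is 1 of the 14 genes named as higher late. The others had log2 differences of 0.86 or more, unadjusted p of at most 0.000327 and adjusted p of 0.165 to 0.204 in limma. They were chosen by smallest p among genes without overlap, as were the genes named as lower late, so these bounds follow from the choice. In the fl/wt line 5 of the 14 had a positive difference and 8 a negative one, and 1 was not tested. Several of the 14 encode secreted or surface proteins. Prph, the intermediate filament peripherin of peripheral neurons, stood at 10.0, 5.74 and 8.87 FPKM early and 24.2, 25.7 and 32.8 late. It was above the early range from day 12 on. Neural and glial markers, of which Prph is 1 of 10, summed to 33.8 to 37.9 FPKM early and 53.9 to 63.0 late, Prph included. Of the 5 tested Prph alone was separated, the median difference was 0.0543, and Nefm and Sox10 were at 0. Replicates 2 and 3 of day 16 did not share this, with Prph at 6.89 and 7.27.

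The BMP-family ligand Gdf6 stood at 2.37, 2.05 and 2.34 FPKM early and 5.48, 5.09 and 6.11 late. Its spread within each period was small, and day 16 replicates 2 and 3 were higher still, at 9.03 and 9.82. Gpc3, a glypican that binds growth factors at the cell surface, stood at 1.86, 2.80 and 3.30 early against 7.58, 9.50 and 7.91, and at 7.72 and 6.66 in replicates 2 and 3. The pentraxin Ptx3, a soluble pattern recognition protein, stood at 81.5, 86.2 and 98.9 early and 153, 163 and 170 late, with 230 and 206 in replicates 2 and 3. The protocadherin Pcdh7 was at 3.91 to 5.36 early and 9.20 to 13.4 late, with 11.1 and 9.67 in those replicates. Col10a1, a short-chain collagen, was at 9.95 to 12.6 early and 19.1 to 29.0 late, with 23.9 and 20.4. For these 5 genes the day 16 replicates left out of the comparison lay above all early libraries. Ptx3 was also higher late without overlap in the fl/wt line, at 66.2 to 82.1 early and 84.8 to 91.8 late.

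The mesenchymal cadherin Cdh11 stood at 39.7, 49.2 and 35.7 FPKM early and 80.8, 93.1 and 95.4 late. The guidance ligand Slit3 was at 3.70 to 4.29 early and 8.19 to 13.8 late, and Megf6 at 6.38 to 9.31 early and 16.2 to 27.5 late. In the fl/wt line Slit3 was higher late without overlap too, at 2.77 to 2.86 early and 3.22 to 3.36 late. Megf6 was lower there, at 1.70 to 1.88 early and 1.48 to 1.66 late. Replicates 2 and 3 of day 16 had none of these late levels, with Cdh11 at 32.0 and 29.2, Slit3 at 4.52 in both and Megf6 at 3.49 and 3.01.

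The 15 genes named as lower late had smaller differences, from -0.48 to -1.08, with adjusted p of 0.204 to 0.275. In the fl/wt line 6 of them had a negative difference and 9 a positive one. Pfkl, the liver-type phosphofructokinase that commits sugar to glycolysis, led by p-value. It stood at 36.7, 40.0 and 35.8 FPKM early and 24.5, 22.7 and 21.0 late, and at 14.3 and 15 in day 16 replicates 2 and 3. Gchfr, the feedback regulator of GTP cyclohydrolase, stood at 36.3, 21.8 and 33.8 early and 15.3, 14.3 and 11.8 late, with 5.71 and 6.92 in those replicates. Stmn2, a microtubule-destabilizing stathmin of neurons, stood at 38.3, 49.6 and 53.8 early and 31.9, 16.3 and 19.3 late, with 6.26 and 6.80. These 3 genes were lower in every library after day 9, and lowest in replicates 2 and 3.

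S100a13 was at 50.4 to 56.1 FPKM early and 33.8 to 37.2 late, and the tight-junction-associated Cgnl1 at 12.4 to 14.6 against 8.01 to 9.06. Clybl, a mitochondrial citramalyl-CoA lyase, was at 6.76 to 7.83 against 4.41 to 5.15. Xpa, a nucleotide excision repair factor, was at 6.76 to 8.35 against 3.93 to 5.49. Others returned to or above the early range in replicates 2 and 3. Layn, a hyaluronan receptor, was at 17.4 to 20.5 early, 13.1 to 13.5 late and 19.6 and 20.5 there. The calponin Cnn1 was at 10.8 to 13.2 early, 5.70 to 8.89 late and 25.6 and 24.0 there. Podnl1, Snhg7, Upf3b and Rasa3 completed the group, and Snhg7 went from 8.63 to 16.0 early to 4.79 to 5.21 late. Snhg7 and Upf3b were also lower late without overlap in the fl/wt line, with Snhg7 at 7.97 to 9.72 early and 6.45 to 7.87 late.

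**Figure D2:**
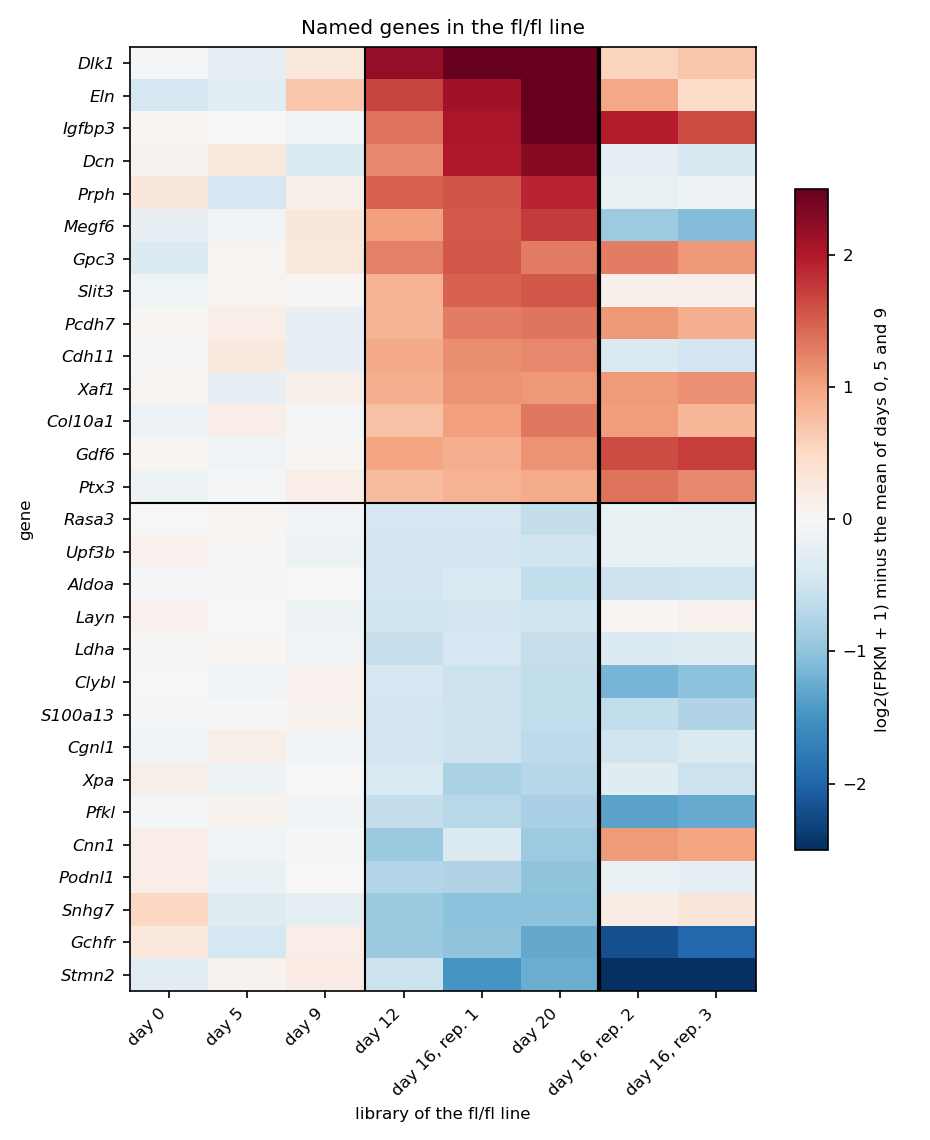
Log2(FPKM + 1) minus the mean of days 0, 5 and 9 (colour, saturating at 2.5 in either direction) for the 14 genes named as higher and the 15 named as lower late, in the 8 libraries of the fl/fl line. Thin lines separate early from late libraries and higher from lower genes, and the thick line sets off day 16 replicates 2 and 3. In these replicates several genes lie on the other side of the early mean from the late libraries. Among them are Cdh11, Megf6, Prph, Dcn, Cnn1, Layn and Snhg7.

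Glycolysis had the largest share of separated members among the metabolic lists. Of 22 genes for glycolysis and lactate, 11 lay lower in every late library than in every early one and 1 lay higher, beside 9.12% and 6.49% of all genes. The median difference was -0.31 against -0.0492 over all genes, and none passed the test. The 11 genes spanned the pathway from the glucose transporter Slc2a1 through Gpi1, Pfkl, Aldoa, Tpi1, Gapdh, Pgk1, Eno1 and Pkm to Ldha, with the kinase Pdk1, which closes the entry of pyruvate into the mitochondrial cycle. Ldha, which converts pyruvate to lactate, stood at 315, 321 and 291 FPKM early and 206, 232 and 207 late (log2 -0.52 ± 0.12, SE; limma adjusted p = 0.256). Aldoa stood at 264, 275 and 267 early and 193, 206 and 176 late, with 187 and 191 in day 16 replicates 2 and 3. Relative to the early mean, the list's median was between -0.0459 and 0.0639 on days 0, 5 and 9 and between -0.395 and -0.252 on days 12, 16 and 20. The isozyme Aldoc was the separated gene on the higher side, at 2.65 to 3.09 early and 4.24 to 5.68 late, but at 0.665 and 0.883 in replicates 2 and 3.

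After either rescaling 8 glycolytic genes remained lower and 1 higher, with medians of -0.26 and -0.25. The fl/wt line had 3 of 21 members lower and 1 higher without overlap, beside 16.6% and 6.93% of all 12357 genes tested there, and the median was -0.012. The enolase isozyme Eno2 passed the test there and fell, from a mean of 17.9 to 13.6 FPKM. Ldha in that line was at 295, 230 and 237 early and 258, 262 and 262 late. The difference between the lines' changes had a median of -0.34 over the 22 genes, was negative for 17 of them and passed the test for none. Pfkl came nearest, at -0.66 ± 0.12 (SE; limma adjusted p = 0.07).

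Many glycolytic genes are targets of the hypoxia-inducible factors, which bind DNA at a short core. The core ACGTG, read on both strands, was found in RefSeq promoter windows (GRCm38.p6, from 250 bases before to 50 after a start site) of 14 of the 22 glycolytic genes, 63.6%, and of 21.8% of all 27025 genes with a window. Counted by window, it was in 17 of the list's 35 windows, 48.6%, and in 19.6% of all 32851 windows. The match describes letters and not binding, and these shares describe the list and not its level here. The 3 genes with the core and the smallest p are shown because Ldha and Aldoa lay lower late and Aldoc higher. Each stretch is written 5′ to 3′ on the gene's strand with the core, or its reverse complement, in capitals.
Ldha, chr7:46845645-46845679, plus strand: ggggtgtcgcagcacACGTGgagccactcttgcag
Aldoa, chr7:126799361-126799395, minus strand: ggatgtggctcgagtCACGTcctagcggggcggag
Aldoc, chr11:78323085-78323119, plus strand: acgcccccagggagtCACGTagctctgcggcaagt

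Of 24 HIF targets outside glycolysis, 4 were lower and 1, Ndrg1, was higher without overlap, with a median of -0.145, beside 9.12% lower and 6.49% higher over all genes. The fl/wt line had 7 of 24 lower, beside 16.6% of all genes, and the difference between the lines' changes had a median of -0.0279. Bnip3, a mitophagy receptor, stood at 50.9, 34.2 and 22.0 FPKM early and 20.3, 13.7 and 15 late. Its level already differed among the early days, as did that of Fam162a, at 79.9, 53.1 and 39.4 early and 35.5, 28.0 and 30.8 late. Ankrd37 stood at 6.99, 4.7 and 3.12 early and 2.41, 2 and 2.3 late. Bnip3 in the fl/wt line stood at 28.1, 24.0 and 21.9 early and 20.9, 19.3 and 19.9 late. The carbonic anhydrase Car12 was at 2.75 to 4.02 early and 1.64 to 2.14 late.

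Most nuclear genes of the respiratory chain had a negative difference, and none passed the test. Of 34 subunits of complexes III, IV and V, 11 were lower and 0 higher without overlap, beside 9.12% lower over all genes, and the median was -0.22. Of 37 complex I subunits 4 were lower, a share near that of all genes, while 36 had a negative difference and the median was -0.27. Uqcrh of complex III stood at 146, 91.1 and 102 FPKM early and 79.0, 70.8 and 73.7 late. Cox6c of complex IV stood at 50.8, 28.3 and 26.2 early and 19.2, 21.3 and 19.8 late. Ndufv2 of complex I stood at 22.6, 16.9 and 18.3 early and 13.2, 15.1 and 14.8 late. For all 3, day 0 was the highest library.

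The median level of the 34 genes relative to the early mean was 0.30 on day 0, -0.24 on day 5 and -0.06 on day 9, then -0.26, -0.19 and -0.25 in the late libraries. Without day 0 the median difference was -0.089 for complexes III, IV and V and -0.14 for complex I, beside -0.0311 for all genes. For glycolysis it was -0.37 without day 0. For cytosolic ribosomal proteins the median was 0.43 on day 0, -0.36 on day 5, -0.12 on day 9 and -0.28 to -0.46 late. Of 36, 6 were lower late without overlap, beside 9.12% of all genes. The fl/wt line had 8 of 36 lower, beside 16.6% of all genes there, with a median of -0.126. The part of day 0 in these lists beyond the medians given was not tested.

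Beside the 9.12% of all genes, 5 of 38 mitochondrial ribosomal proteins were lower without overlap, among them Mrpl24, at 79.8, 54.3 and 63.2 FPKM early and 47.4, 45.4 and 44.9 late. Of 18 fatty acid oxidation genes 5 were lower, and the medium-chain dehydrogenase Acadm was at 20.2 to 22.0 early and 15.9 to 18.0 late. Of 14 tricarboxylic acid cycle genes 2 were lower, Idh3g and the fumarase Fh1, and Fh1 was at 38.2 to 40.8 early and 32.4 to 36.6 late. No member of these 3 lists was higher without overlap. The fl/wt medians of the respiratory lists were near 0, at 0.010 for complexes III, IV and V and 0.0048 for complex I.

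Of 15 genes for anaplerosis and aspartate supply 4 were higher and 0 lower without overlap, beside 6.49% higher over all genes, and in the fl/wt line 9 of 15 were higher, beside 6.93%. Those of the fl/fl line included the aspartate and glutamate transporter Slc1a3, at 7.25 to 8.20 FPKM early, 10.4 to 11.6 late and 19.4 and 20.4 in day 16 replicates 2 and 3. The glutamine transporter Slc1a5 was at 23.2 to 31.5 early and 34.4 to 38.8 late, and the cytosolic aspartate aminotransferase Got1 at 16.6 to 17.8 against 18.4 to 22.5. Of 30 targets of the stress-response factor ATF4, 5 were higher and 0 lower, with a median of 0.20, beside 6.49% higher over all genes. The fl/wt line had 10 of 28 higher, beside 6.93%. The glutathione-degrading Chac1 was at 14.7 to 16.7 early and 21.5 to 30.8 late. Fgf21, a secreted stress hormone, was at 1.80 to 1.90 early, 3.56 to 4.49 late and 0.968 and 0.808 in replicates 2 and 3.

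Interferon-stimulated genes had the highest share of separated members among the lists. Of 38 tested 32 were higher and 0 lower without overlap, beside 6.49% higher and 9.12% lower over all genes. A positive difference was found for 37, and the median was 0.84 against -0.0492 over all genes. The earlier results of these data that named this list were known, so its direction is no independent evidence, and none of the 38 passed the test. Oasl2, an oligoadenylate-synthetase-like antiviral protein, stood at 3.06, 4.58 and 7.58 FPKM early and 14.3, 15.5 and 17.8 late. The apoptosis-linked Xaf1 stood at 2.09, 1.55 and 2.2 early and 4.48, 5.35 and 5.20 late. The guanylate-binding GTPase Gbp3 stood at 1.27, 1.49 and 1.97 early and 3.96, 4.14 and 4.7 late. In day 16 replicates 2 and 3, Oasl2 was at 13.4 and 13.3, Xaf1 at 5.12 and 5.45 and Gbp3 at 3.20 and 2.93, all above the early libraries.

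The list's median relative to the early mean was -0.30 on day 0, 0.017 on day 5 and 0.27 on day 9, then 0.69, 0.91 and 0.88. Day 16 replicates 2 and 3 were at 0.72 and 0.76. The early libraries already differed among themselves in this list. Among 34 tested in the fl/wt line, 0 were higher and 6 lower, a lower share near the 16.6% of all genes there, with a median of -0.23. The change was larger in the fl/fl line for all 35 members in the test between lines, which called Xaf1 and Gbp3. Of the class I antigen presentation genes, 6 of 11 were higher and 0 lower in the fl/fl line, beside 6.49% higher over all genes. All 11 had a positive difference, and the median was 0.58. The fl/wt line had 0 of 10 higher and 1 lower, with a median of -0.0815. The heavy chain H2-K1 stood at 42.0, 44.5 and 60.1 FPKM early and 81.2, 91.3 and 110 late, and the peptide transporter Tap1 at 4.69, 5.46 and 10.3 against 13, 11.4 and 13.5. Reads of H2 genes and of guanylate-binding genes can be shared with close paralogs, so their single values are uncertain.

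Interferon-stimulated genes share a promoter element bound by STAT and IRF factors. Its core, GAAANNGAAA on either strand, lay in the RefSeq window (GRCm38.p6) of 17 of 33 list members with a window, 51.5%, and of 3.99% of all genes. Counted by window, the core was in 44.7% of the list's 38 windows and in 3.44% of all windows. The list was assembled for interferon response, so these shares describe the list and not its level here. The 3 members with the core and the smallest p, all higher late without overlap, are shown in the same way as above. Of these, Gbp2 was at 0.838 to 1.71 FPKM early and 2.91 to 3.58 late.
Gbp3, chr3:142559990-142560029, plus strand: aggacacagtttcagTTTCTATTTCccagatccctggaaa
Gbp2, chr3:142620589-142620628, plus strand: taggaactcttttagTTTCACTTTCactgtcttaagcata
Isg15, chr4:156200872-156200911, minus strand: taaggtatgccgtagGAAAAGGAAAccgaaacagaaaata

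**Figure D3:**
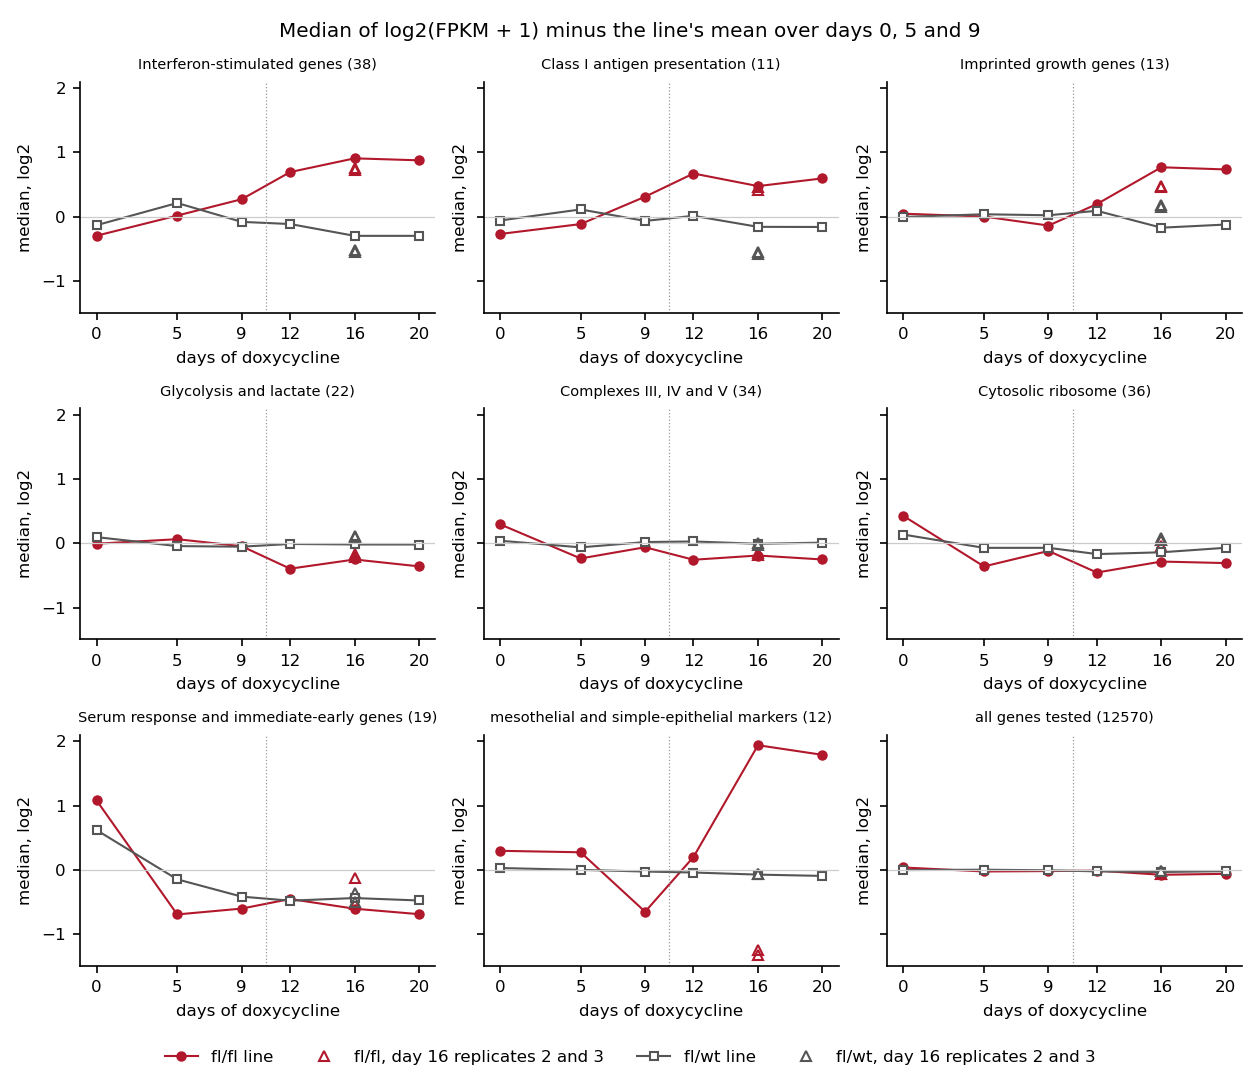
Median over the genes of each list (number in the title) of log2(FPKM + 1) minus the same line's mean over days 0, 5 and 9 (y axis), by days of doxycycline (x axis), for 8 lists and all genes tested in the fl/fl line. Symbols are as in the plot of single genes; interferon-stimulated genes stand at 0.69 to 0.91 late and mesothelial markers at 0.20, 1.94 and 1.79.

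Growth-factor and imprinted genes were the next group with separated members on the higher side. Of 10 genes of the insulin-like growth factor axis 6 were higher and 0 lower without overlap, with a median of 0.565. Over all genes 6.49% were higher and 9.12% lower. The fl/wt line had 0 of 10 higher and 3 lower, beside 6.93% and 16.6% of all genes there. The binding protein Igfbp3 stood at 2.41, 2.35 and 2.18 FPKM early and 7.53, 12.7 and 20.0 late (log2 2.03 ± 0.29, SE; limma adjusted p = 0.165). It was at 11.9 and 9.29 in day 16 replicates 2 and 3 and at 2.05 to 2.71 in all 6 fl/wt libraries of the comparison. Igfbp6 was at 17.8 to 20.2 early and 26.9 to 48.7 late, and the ligand Igf1 at 0.677 to 1.49 against 2.07 to 2.21. In day 16 replicates 2 and 3 Igfbp6 was below the early range, at 14.8 and 11.6, and Igf1 within it, at 1.06 and 1.08. Of 13 imprinted growth genes 5 were higher and 0 lower, with a median of 0.61, beside the same shares of all genes. The fl/wt line had 2 of 12 higher and 4 lower. Besides Dlk1, the 5 genes higher in the fl/fl line included the zinc-finger factor Plagl1. Its level was 22.4, 24.4 and 16.1 early and 40.1, 59.5 and 66.9 late. Mest was at 7.72 to 9.92 early and 13.6 to 20.9 late, and the noncoding H19 at 59.6 to 70.3 against 91.0 to 118. H19 in the fl/wt line was at 622 to 816 and Mest at 35.1 to 48.8, above every late fl/fl library.

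Matrix genes were higher in part. Of 38 matrix glycoproteins and lysyl oxidases 11 were higher and 0 lower without overlap, with a median of 0.29. Of 17 collagens 6 were higher and 0 lower, with a median of 0.36. Over all genes 6.49% were higher and 9.12% lower. The fl/wt line had 7 of 36 matrix glycoproteins and lysyl oxidases higher and 4 lower. It had 3 of 17 collagens higher and 1 lower, beside 6.93% and 16.6% of all genes there. The proteoglycan decorin, Dcn, stood at 30.4, 34.3 and 22.4 FPKM early and 67.5, 118 and 143 late. Elastin, Eln, stood at 1.38, 1.68 and 4.23 early and 9.37, 12.8 and 18.8 late. The basement-membrane nidogen Nid2 stood at 35.1, 54.7 and 47.2 early and 80.7, 115 and 131 late. The fibril collagen Col3a1 stood at 147, 263 and 259 early and 397, 449 and 499 late. In day 16 replicates 2 and 3 these were near the early range, with Dcn at 24.2 and 21.3, Eln at 5.27 and 3.45, Nid2 at 45.7 and 45.2, and Col3a1 at 220 and 215. Fn1, fibronectin, was not, at 200 to 284 early, 357 to 395 late and 541 and 596 there. Fbln5 was at 43.5 to 61.5 early and at 82.7 and 78.9 there. Relative to the early mean, the median of the matrix glycoprotein list was 0.304, 0.156 and 0.315 late. It was 0.485 and 0.29 in replicates 2 and 3. For collagens the median was 0.429, 0.353 and 0.341 late and 0.238 and 0.2 there. With those replicates in place of replicate 1, 8 of 38 matrix glycoproteins and 2 of 17 collagens were higher without overlap. Over all genes 512 of 12587 were higher under that exchange. Without day 0 the median differences were 0.13 for the matrix glycoprotein list and 0.16 for collagens.

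Markers of mesothelium and simple epithelium had a higher summed level on day 16, replicate 1, and day 20, but not on day 12. The sums were 177 to 357 FPKM early, 347 to 1250 late, and 101 to 114 in day 16 replicates 2 and 3. None of the 14 measured markers was under 0.1 FPKM throughout. Upk3b, a uroplakin of mesothelium, stood at 84.8, 103 and 50.3 early and 127, 455 and 433 late, and at 22.9 and 28.0 in those replicates. Lrrn4 stood at 29.6, 43.2 and 14.6 early and 47.6, 169 and 147 late, and the transcription factor Wt1 at 9.51, 8.64 and 4.02 against 8.80, 28.2 and 24.9. The low points were day 9 and replicates 2 and 3, and the high points day 16 replicate 1 and day 20. All 12 tested markers had a positive difference, and 3 were higher without overlap, beside 6.49% of all genes. The median of the 12 was 1.31, which was 0.24 with replicates 2 and 3 in place of replicate 1. The fl/wt line had Upk3b, Lrrn4 and Wt1 under 0.7 FPKM in all 6 libraries. Its sums over the same markers were 103 to 118 FPKM early and 112 to 123 late. Of 5 markers tested there 2 were higher and 1 lower without overlap, beside 6.93% and 16.6% of all genes. The part of these markers in the results for Dcn, Col3a1, Igfbp6, Cdh11 and the matrix lists was not tested.

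Of 20 Wnt pathway genes tested, 8 were higher and 2, Wnt10a and Wnt10b, lower without overlap. Over all genes 6.49% were higher and 9.12% lower, so the lower share was near that of all genes. The fl/wt line had 2 of 21 higher and 3 lower, beside 6.93% and 16.6% of all genes there. With day 16 replicates 2 and 3 in place of replicate 1, 3 of the 20 were higher and 1 lower in the fl/fl line. Over all genes 512 of 12587 were higher and 695 lower under that exchange. The R-spondin Rspo3, which amplifies Wnt signalling, stood at 10.6, 11.1 and 13.4 FPKM early and 30.3, 19.4 and 27.2 late, and at 40.1 and 34.5 in replicates 2 and 3 of day 16. The secreted antagonist Sfrp1 was at 5.29 to 8.17 early and 12.4 to 13 late, and the ligand Wnt5a at 8.39 to 10.7 against 14.1 to 15. Replicates 2 and 3 had Sfrp1 within the early range, at 8.12 and 5.99, and Wnt5a at 11.5 and 10.3. Wnt10a was at 1.38 to 2.23 early and 0.923 to 1.04 late, with 1.99 and 2.23 in those replicates. Among the 13 fibroblast markers, Dcn, Col3a1, Fn1 and Col1a1 were higher and S100a4 was lower without overlap, beside the same shares of all genes. S100a4, a calcium-binding protein, stood at 1610, 1040 and 924 early and 529, 712 and 673 late.

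The test of whether the lines' late-minus-early changes differed called 12 of 12565 genes, 0.0955%, and for all 12 the change was higher in the fl/fl line. Dlk1 led, with a difference of 2.54 ± 0.25 (SE; limma adjusted p = 0.00534). Among the others, Prph stood at 1.94 ± 0.24 (adjusted p = 0.0227), Gpc3 at 1.66 ± 0.23 (0.0368) and Megf6 at 1.56 ± 0.24 (0.0438). Xaf1, Pcdh7 and Gbp3 had differences of 1.44, 1.33 and 1.28. Among the fl/wt libraries Gpc3 was at 9.11 to 12.1 FPKM early and 7.82 to 10.2 late, and Prph at 1.30 to 1.80 against 1.00 to 1.15. The fl/wt line's own comparison called 13 of its genes, 0.105%, all lower late. With day as a block, pairing the lines by day, limma called none, with 1246 genes at an unadjusted p under 0.05 and Dlk1 at an adjusted p of 0.13. With the mean of day 16 replicates 2 and 3 for day 16 in both lines limma also called none, and Dlk1 then had a difference of 1.74 (adjusted p = 1.0). With single libraries left out, the count ranged from 1 to 355, and it was 355 without day 12 of the fl/fl line.

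In the other direction limma called no gene, with 384 at an unadjusted p under 0.05. Those with the smallest p were Pfkl, Cgnl1 (-0.66 ± 0.12, SE; limma adjusted p = 0.0727), Layn, Podnl1, Gchfr, Rasa3, S100a13 and Wnt10a. Gchfr had the largest of these differences, -1.08 ± 0.23 (adjusted p = 0.0928), and was at 14.7 to 16.4 FPKM in the 6 fl/wt libraries. Wnt10a was at 43.4 to 48.3 early and 54.5 to 57.2 late in the fl/wt line.

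**Figure D4:**
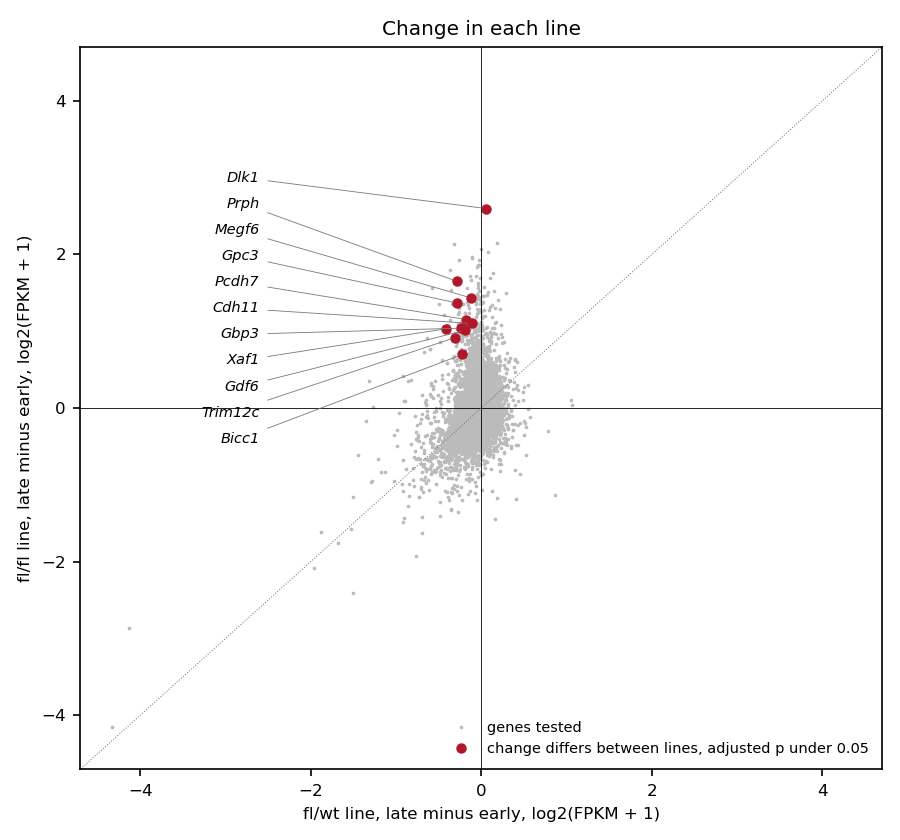
Late-minus-early difference in log2(FPKM + 1) in the fl/fl line (y axis) against the fl/wt line (x axis), 1 grey point for each of 12564 genes. The 11 genes in red, whose changes differed between lines at an adjusted p under 0.05, all lie above 0 on the y axis, and the dotted diagonal marks equal change.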

How the data were processed

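RNA-seq libraries (TruSeq v2 for mRNA) of 2 lines were deposited by the authors as 1 file of FPKM per library, with 24485 Entrez gene IDs, per the file headers. The submitters' processing notes name mm9 and Bowtie2 2.2.3; how reads were counted, and whether by strand, is not given in the sources used, so overlapping and antisense genes cannot be told apart. Symbols came from RefSeq (24416 IDs matched) and mm9 positions from the annotation of that build. Log2(FPKM + 1) was fitted with limma 3.58.1 (trend and robust, R 4.3.3) on genes with a mean of at least 1 FPKM, with Benjamini-Hochberg adjustment and a threshold of 0.05. Fold differences on this scale understate changes of low genes.

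A late-against-early fit was made in each line and an interaction fit over 12 libraries; Sdhc was tested by exact permutation (scipy 1.17.1). FPKM were whole multiples of 1 read: reads were recovered for 18966 genes (5519 others had reads in fewer than 2 libraries), all values within 0.000664 of a whole number (tolerance 0.02). Recovery and fits were tested on simulated data. limma voom on these reads was an alternative and called 1 gene in the fl/fl line. Genes named as higher or lower late had at least 73 reads in every library of the comparison.

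Members, gene lists and tests were chosen with earlier results of these data known. Genes were named as follows: SDH subunits; 15 in each direction that passed the test, or else had the smallest p, without overlap between periods and with a mean of at least 5 FPKM in the higher one; up to 4 per described list by smallest p; and 8 in each direction for the difference between lines. Predicted genes and small RNAs were not named, and 1 gene named by the rule as higher late and in the difference between lines is not reported here. Members listed beyond these rules, Isg15, Trim12c, Bicc1 and the remaining separated members of lists, were named after their values were seen. Of the 45 lists fixed, those described are in the text. Alternatives were pseudocounts, filters, rescalings, fits, day 16 replicates, day as a block between lines and single libraries left out.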

Additional observations from a re-analysis of the deposited data

Results flagged for a closer look

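The late-minus-early change differed between the lines for 12 genes in the interaction test (limma, adjusted p under 0.05), all with a larger change in the fl/fl line, and 11 of them are given here. On the log2(FPKM + 1) scale the differences were 2.54 for Dlk1, 1.94 for Prph, 1.66 for Gpc3, 1.56 for Megf6, 1.44 for Xaf1, 1.33 for Pcdh7 and 1.28 for Gbp3. Trim12c and Cdh11 stood at 1.22 each, Gdf6 at 1.21 and Bicc1 at 0.918. Trim12c has close paralogs with which reads can be shared. None of the 12 was called with day 16 replicates 2 and 3 in place of replicate 1, or with day as a block.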

How the results depend on the processing

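In the fl/fl line 1 gene was called with a pseudocount of 0.1, a mean of at least 5 FPKM, median-of-ratios or quantile rescaling, voom on recovered reads, or a minimum mean of 50 reads, an alternative added after seeing the data. It was 0 with a pseudocount of 5, with no filter and without limma's trend and robust options. It was also 0 with day 16 as the mean of replicates 2 and 3, and with those replicates added. For a slope on day it was 3, 1 higher and 2 lower, and Dlk1 was not among them. Adjusted p of Dlk1 ranged up to 0.955. With single libraries left out the count ranged from 0 to 208; genes without overlap ranged from 908 to 1696 higher and 1383 to 2756 lower, which fewer libraries raise by construction. Replicates 2 and 3 of day 16 in place of replicate 1 left 512 higher and 695 lower, and adding them left 359 and 516.

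Between lines the 12 calls became 3 with no filter, 6 with at least 5 FPKM, 6 after median-of-ratios rescaling, 3 after quantile normalization, 0 with day 16 as the mean of replicates 2 and 3, 27 with at least 50 reads, and 1 to 355 with single libraries left out. The fl/wt line's 13 calls ranged from 0 to 36. The cause of these shifts was not tested. Sdhc kept its sign throughout (-0.245 to -0.74 with libraries left out). Signs reversed for Sdha (slope 0.0387; -0.255 to 0.00933 with libraries left out), Col8a2 (-0.0584 with replicates 2 and 3 in place of replicate 1; -0.272 with them added) and Aldoc (-0.0867 with them added). Early and late libraries of a line are different days and cannot be paired. Between lines, day as a replicate block, added after seeing the data, left 0 calls, with Dlk1 at 2.54 (adjusted p = 0.13). Deviations from the group means of same-day libraries correlated across genes at 0.321, 0.363, 0.0757, 0.182, 0.0534 and 0.115 on days 0, 5, 9, 12, 16 and 20; on days 9 and 16 another day of the period correlated better, and the labels name no shared batch.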

Other observations

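Immediate-early genes, which respond within minutes to serum and stress, were high on day 0 in both lines. Fosb stood at 418, 33.6 and 19.4 FPKM on days 0, 5 and 9 of the fl/fl line and at 7.84, 1.82 and 1.13 on days 12, 16 and 20. Fos stood at 1090, 181 and 127, and then at 87.4, 31.0 and 22.4. Fosb in the fl/wt line went from 107, 35 and 11 to 0.981, 0.683 and 0.723, and Fos from 346, 162 and 83.1 to 13.6, 7.73 and 5.95. Of 19 genes of this list 6 were lower late without overlap in the fl/fl line, beside 9.12% of all genes. In the fl/wt line 9 were, beside 16.6% of all genes there. The medians were -0.56 and -0.44. None passed the test in the fl/fl line. The median was -0.20 in the fl/fl line without day 0. Day 16 replicates 2 and 3 differed from each other for these genes, with Fosb at 59.9 and 8.91 and Fos at 246 and 82.1.

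Over all genes, 6.49% were higher and 9.12% lower without overlap in the fl/fl line. Of 27 DNA replication genes 0 were higher and 3 lower in the late fl/fl libraries, of 25 mitosis genes 0 and 2, and of 21 p53 and senescence-linked genes 1 and 0. Of 22 2-oxoglutarate dioxygenases, the enzyme family that succinate can inhibit, 1 was higher and 2 were lower, with a median of -0.020. Of 15 unfolded protein response genes 1 was higher without overlap in the fl/fl line and 12 were in the fl/wt line, where 6.93% of all genes were. The medians were 0.143 and 0.196, 13 of the 15 had a positive difference in the fl/fl line, and the test between lines called 0 of 15, with a median difference of -0.0308.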
